A study of Mus musculus with 6 samples.

Results

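The 32 genes described here are those of glycolysis and of the response to low oxygen: the enzymes that turn glucose into lactate, the carriers of glucose and lactate, the kinases that hold pyruvate back from the mitochondrion, the hypoxia-inducible factors with the hydroxylases that mark them for destruction, and a few genes these factors switch on. They were chosen by function, as a list of gene symbols, and looked up by Ensembl identifier among the 15441 identifiers with a value in the RNA-seq tables of the mouse cortex after stroke. A value was found for 29 of the 32, and 28 of them were listed in every one of the 6 libraries. Hk2 was not listed in the control and day 28 libraries, and Gapdh, Pkm and Hif1a had no value under their own identifiers. No event of any library lay at the position of Gapdh. The events at Pkm and Hif1a carried the identifiers of Gm49759, which lies within Pkm, and of Snapc1, the neighbour of Hif1a, and are described by position in a later paragraph.

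Male C57/BL6J mice of 6 to 8 weeks received Rose Bengal and were illuminated over the sensorimotor cortex with cold light, which clots the vessels under the beam and leaves a small cortical infarct (photothrombosis). No allele or further agent was introduced in any group. RNA of the whole ipsilateral cortex, infarct and surrounding tissue together, was taken at 5 times post-stroke (day 1, day 3, day 7, day 14 and day 28), and the control was sham-operated cortex on day 7 after the operation. RNA from 3 mice was pooled at each time, so each group was 1 library, and no difference below has a replicate check or a p-value. A single control on day 7 also means that time after surgery was matched on day 7 only. All 5 ratios of a gene share that control, so a control reading too low or too high would shift all 5 alike.

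Cells that lose oxygen stop degrading the hypoxia-inducible factors, which then bind a short core motif near their target genes and raise glycolytic enzymes, glucose and lactate carriers and pyruvate dehydrogenase kinases. In the brain, astrocytes are the more glycolytic cells and release lactate, while neurons take lactate up and burn it, and the isozymes of aldolase, enolase and lactate dehydrogenase are spread unevenly over these cell types. In bulk tissue, fewer cells of a type and less RNA per cell cannot be told apart.

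The gene value is the largest of the summed transcript starts, the summed transcript ends and any single event, in FPKM (fragments scaled to transcript length and to the size of the library). A gene is called higher or lower here when log2((FPKM + 0.1)/(control FPKM + 0.1)) was at least 1 in size, among genes with at least 1 FPKM in 1 of the 2 libraries. The share of all genes past that limit in any library was not counted, and shares by library are given below. Of the 29 genes, 7 passed that limit in at least 1 post-stroke library: Hk2, Gpi1, Slc16a3, Slc16a7, Adm, Pfkfb3 and Ddit4. Hk2 passed only because a gene not listed in control was set to 0, and not listed does not show low expression here, since Gapdh and the cell markers Cx3cr1, Tmem119 and Cldn5 were not listed in control either. The promoters of 6 of them, read from RefSeq on GRCm38.p6 as the 250 bases before the annotated start, are shown because these are the genes that moved most. The capitals mark ACGTG and GCGTG on either strand, both spellings of the core that hypoxia-inducible factors bind. Overlapping matches run together.
Hk2 (chr6:82774455-82774704, minus strand): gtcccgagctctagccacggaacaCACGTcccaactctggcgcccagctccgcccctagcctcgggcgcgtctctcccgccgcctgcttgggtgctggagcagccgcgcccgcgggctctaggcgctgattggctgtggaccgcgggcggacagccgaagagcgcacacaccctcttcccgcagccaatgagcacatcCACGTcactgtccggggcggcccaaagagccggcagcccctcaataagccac
Gpi1 (chr7:34230337-34230586, minus strand): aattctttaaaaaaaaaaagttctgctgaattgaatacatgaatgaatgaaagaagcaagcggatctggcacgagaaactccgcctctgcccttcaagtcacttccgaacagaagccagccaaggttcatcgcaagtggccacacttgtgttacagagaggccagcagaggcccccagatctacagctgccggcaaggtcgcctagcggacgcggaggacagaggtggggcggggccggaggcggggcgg
Slc16a3 (chr11:120948817-120949066, plus strand): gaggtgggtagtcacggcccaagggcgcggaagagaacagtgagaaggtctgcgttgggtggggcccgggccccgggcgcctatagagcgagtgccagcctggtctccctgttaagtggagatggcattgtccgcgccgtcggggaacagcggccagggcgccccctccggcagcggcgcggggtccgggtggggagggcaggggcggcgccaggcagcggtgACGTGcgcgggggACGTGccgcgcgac
Adm (chr7:110627407-110627656, plus strand): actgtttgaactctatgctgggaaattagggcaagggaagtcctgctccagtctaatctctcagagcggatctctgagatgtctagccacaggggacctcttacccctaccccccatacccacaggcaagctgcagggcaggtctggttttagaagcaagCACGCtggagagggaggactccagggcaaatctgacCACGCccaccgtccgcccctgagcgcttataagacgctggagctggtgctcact
Ddit4 (chr10:59951771-59952020, minus strand): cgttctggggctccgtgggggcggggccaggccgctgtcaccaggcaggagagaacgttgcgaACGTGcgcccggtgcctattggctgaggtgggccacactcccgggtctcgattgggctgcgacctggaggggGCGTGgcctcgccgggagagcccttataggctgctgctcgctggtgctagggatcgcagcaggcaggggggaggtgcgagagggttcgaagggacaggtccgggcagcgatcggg
Pfkfb3 upstream start (chr2:11553930-11554179, minus strand): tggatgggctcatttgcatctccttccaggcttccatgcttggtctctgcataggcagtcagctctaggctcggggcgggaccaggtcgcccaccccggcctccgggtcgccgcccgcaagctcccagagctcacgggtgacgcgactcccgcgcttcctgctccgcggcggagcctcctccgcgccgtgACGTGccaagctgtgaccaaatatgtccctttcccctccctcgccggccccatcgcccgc
Pfkfb3 downstream start (chr2:11502091-11502340, minus strand): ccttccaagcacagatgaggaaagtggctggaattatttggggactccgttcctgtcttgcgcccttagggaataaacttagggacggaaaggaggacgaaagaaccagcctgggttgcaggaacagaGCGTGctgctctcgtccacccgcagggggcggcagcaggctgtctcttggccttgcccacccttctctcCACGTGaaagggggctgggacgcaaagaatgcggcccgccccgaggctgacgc

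The core letters occurred in the windows of 5 of these 6 genes, and Gpi1 had none. Of the 29 listed genes with a RefSeq promoter, which include Gapdh, Pkm and Hif1a, 26 (89.7%) held the core in at least 1 promoter, against 11226 of 27025 gene symbols (41.5%) in the whole promoter table. Counted per promoter, the shares were 34 of 43 (79.1%) and 12679 of 32851 (38.6%). The base composition of the promoters was not matched, several of these genes are textbook targets of the factors, and a match is only a run of letters. Genes that stayed near control held it as well: the promoter of Bnip3, a mitophagy receptor, and the upstream promoter of Ldha each held 5 matches.

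Most of the pathway, like most of all genes compared, stayed short of the limit at every time. At day 1, 3 of 29 genes compared were higher (10.3%), while 5.11% of all 11790 genes compared were, and 1 was lower (3.45%) against 4.48% of all. At day 3, 3 of 29 were higher (10.3%, against 8.54% of all genes) and 0 were lower (2.53% of all). At day 7, 2 of 28 were higher (7.14%, against 8.53%) and 0 lower (2.12% of all). At day 14, 2 of 29 were higher (6.90%, against 8.97%) and 2 lower (6.90%, against 6.92%). At day 28, 0 of 28 were higher (3.68% of all) and 1 was lower (3.57%, against 2.79%). Hk2, not listed in control, supplies 1 of the higher calls on each of days 1, 3, 7 and 14, and Adm, under 1 FPKM in control, entered the comparison on days 1 and 3 only through its post-stroke level, so these counts are a description and support nothing. Among genes listed in both libraries, the higher counts on days 1 to 28 were 2 of 28, 2 of 28, 1 of 27, 1 of 28 and 0 of 28, beside 4.13%, 7.15%, 7.08%, 7.69% and 3% of all such genes.

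**Figure D1:**
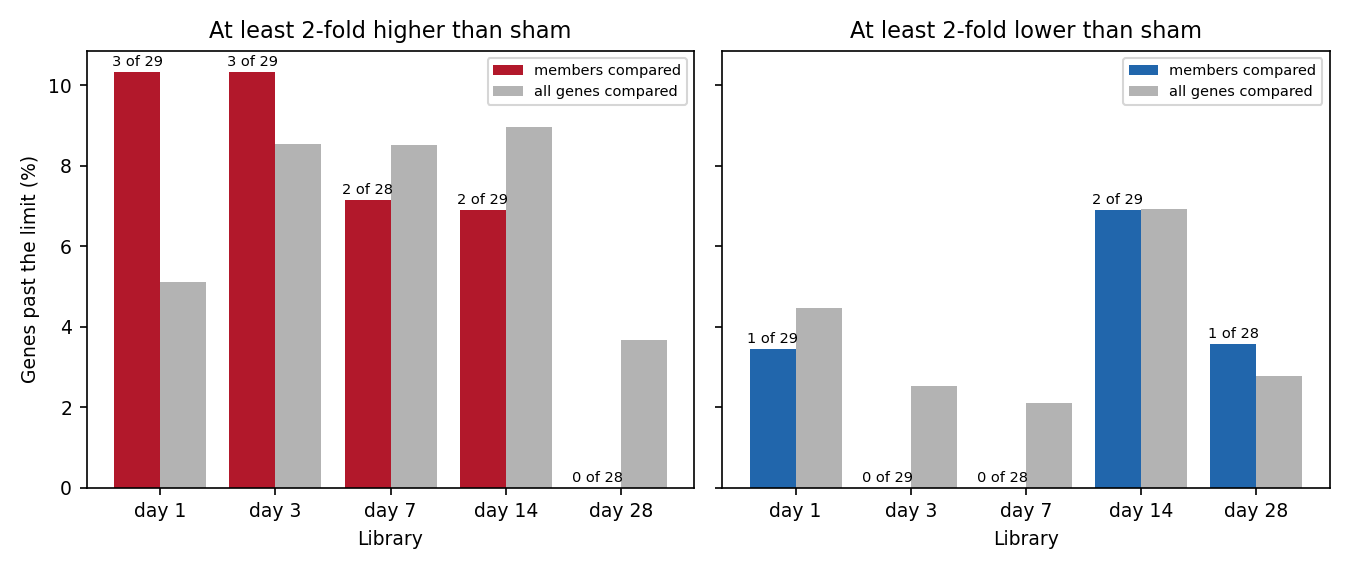
Percent of genes at least 2-fold higher (left) or lower (right) than the sham library on the log2(FPKM + 0.1) scale, by library, for the glycolysis and hypoxia genes compared (coloured bars, with their counts) and for all genes compared (grey bars). The coloured bars rest on 0 to 3 genes each.

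The median log2 ratio of the genes described was 0.16 on day 1, 0.01 on day 3, -0.01 on day 7, 0.22 on day 14 and 0.02 on day 28, beside medians over all genes compared of 0.01, 0.03, 0.03, 0.10 and 0.03. The ratio stayed within 1.5-fold of control for 23 of 29 genes on day 1 (79.3%, against 77.3% of all genes), 22 of 29 on day 3 (75.9%, against 77.5%), 21 of 28 on day 7 (75.0%, against 78.6%), 23 of 29 on day 14 (79.3%, against 68.1%) and 24 of 28 on day 28 (85.7%, against 84.2%). Among genes with at least 5 FPKM in every library, the highest value was over 2 times the lowest for 3 of 22 of these genes (Gpi1, Slc16a1 and Ddit4) and for 866 of 6423 genes overall.

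On day 1 the ratios were mostly small, yet many genes had their highest value there. Of the 28 genes listed everywhere, 13 (46.4%) had their highest value in the day 1 library, against 16.0% of all 11750 genes listed everywhere. They were Hk1, Pfkm, Pfkp, Pfkfb3, Pgk1, Pgam1, Ldha, Slc2a3, Egln1, Bnip3, Adm, Pdk2 and Ddit4. For Pfkp the day 1 value is a start and the control value summed ends, and its main end was highest in control. A further 8 (28.6%, against 27.8% of all genes) were highest on day 14, all of them enzymes: Gpi1, Pfkl, Aldoa, Aldoc, Tpi1, Eno1, Eno2 and Ldhb. None was highest on day 28 (13.9% of all genes). In 2 libraries short transcripts read higher against control than long ones: the log2 ratio over all genes compared went with transcript length at rho = -0.41 on day 14 and -0.25 on day 1, and between -0.09 and 0.00 in the others. Divided by that length trend, 11 of 28 of these genes (39.3%) were still highest on day 1, against 19.1% of all. Depth is unknown for each library, since FPKM keep no read counts.

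**Figure D2:**
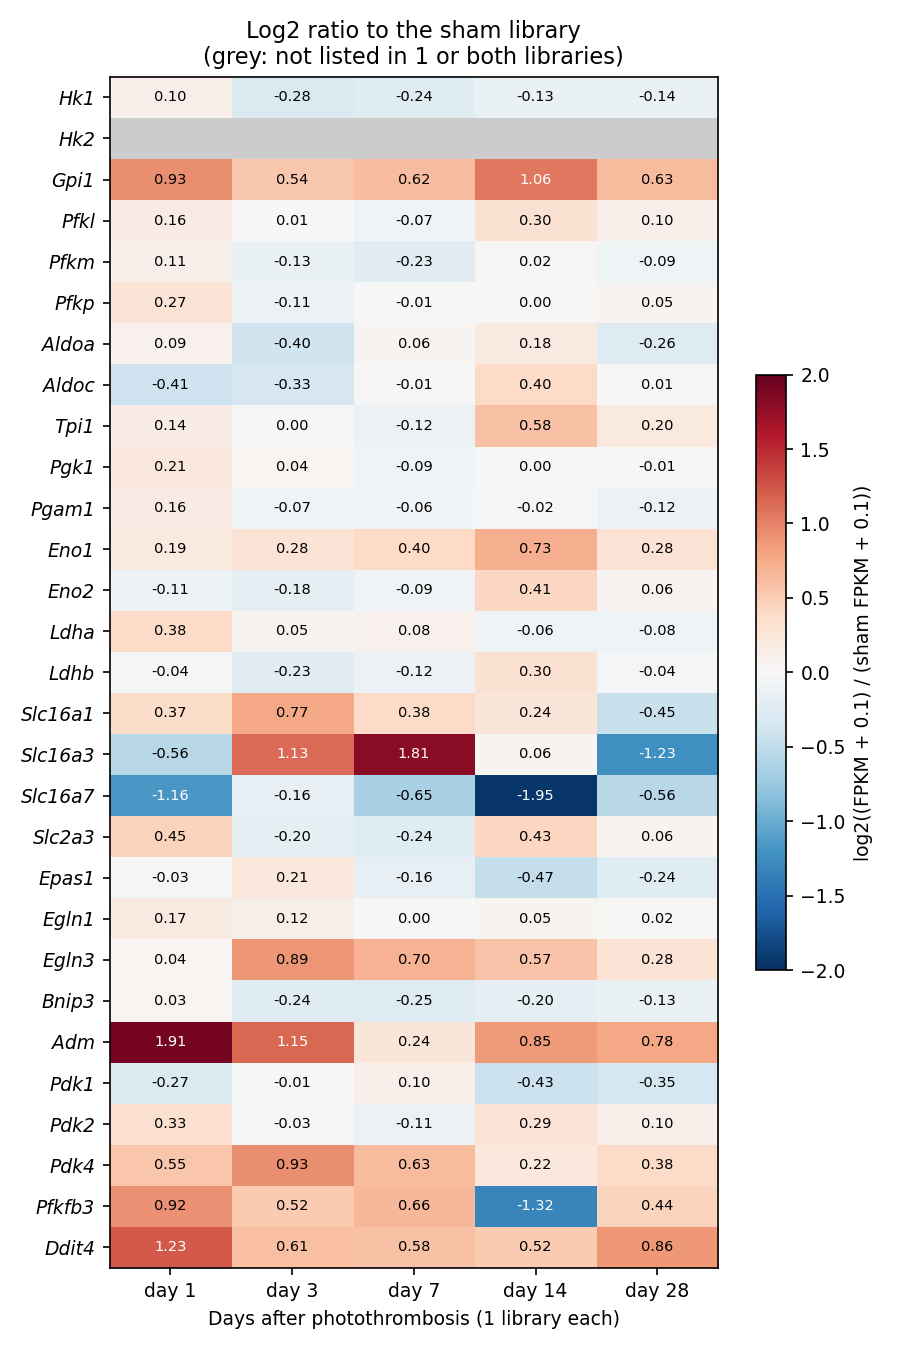
Log2 ratio of each gene with a value (rows) to the sham library, by post-stroke library (columns), with red for higher and blue for lower than control and the ratio printed in each cell; grey cells are Hk2, which was not listed in the control. Most cells are pale, and the deep colours fall on Adm, Slc16a3, Slc16a7, Ddit4, Pfkfb3 and Gpi1.

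Among the glucose and lactate carriers, Slc16a3 and Slc16a7 passed the limit and Slc2a3 and Slc16a1 did not. Slc2a3 encodes GLUT3, the high-affinity glucose transporter of neurons, and was listed at 19.6 FPKM in control, 26.7 on day 1, 17.0 on day 3, 16.6 on day 7, 26.3 on day 14 and 20.4 on day 28, so that days 1 and 14 stood above the rest. Slc16a1, the lactate carrier MCT1, went from 7.83 FPKM in control through 10.1, 13.4, 10.2 and 9.29 on days 1, 3, 7 and 14 to 5.71 on day 28, and its log2 ratio was largest on day 3 (0.77).

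Slc16a3 encodes MCT4, the low-affinity carrier that glycolytic cells use to export lactate. It was listed at 1.22 FPKM in control, 0.796 on day 1, 2.80 on day 3, 4.54 on day 7, 1.28 on day 14 and 0.464 on day 28. Days 3 and 7 stood above the other libraries, with log2 ratios of 1.13 and 1.81, and day 28 lay below control at -1.23. All these levels are low, and with a pseudocount of 1 FPKM the ratios on day 3 (0.77) and day 28 (-0.60) no longer passed the limit.

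Slc16a7 encodes MCT2, the high-affinity carrier through which neurons take lactate up. It was highest in control at 3.38 FPKM and was listed at 1.46 on day 1, 3.01 on day 3, 2.12 on day 7, 0.803 on day 14 and 2.26 on day 28. The day 1 and day 14 values were the lowest, at log2 ratios of -1.16 and -1.95. Its longest transcript has 10981 bases, and after the length correction the ratios were -0.87 on day 1, short of the limit, and -1.62 on day 14. Of the summed FPKM of Slc16a1 and Slc16a7, the neuronal carrier made up 30.2% in control, 12.6% on day 1, 18.4% on day 3, 17.2% on day 7, 7.96% on day 14 and 28.4% on day 28.

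**Figure D3:**
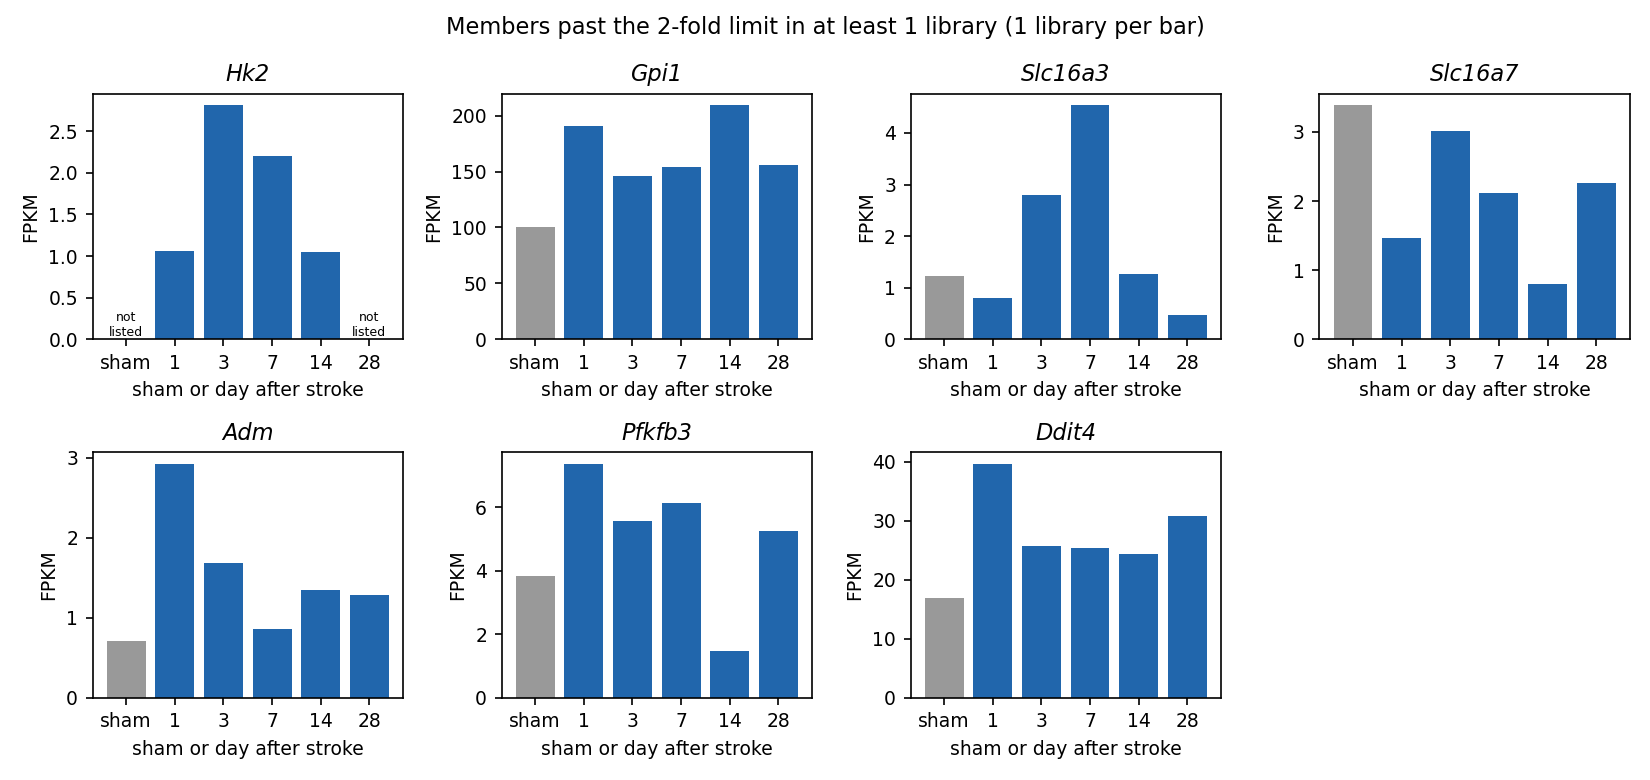
FPKM of the 7 genes that passed the 2-fold limit in at least 1 post-stroke library, in the sham library (grey) and in each post-stroke library (blue), with 1 library per bar and an axis from 0 in each panel. Adm and Ddit4 are highest on day 1, Slc16a3 on day 7, Gpi1 on day 14, and Slc16a7 in the sham library.

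In the upper part of glycolysis, the brain hexokinase Hk1 traps glucose in the cell as glucose 6-phosphate. It was listed at 72.7 FPKM in control and at 78.2, 59.6, 61.3, 66.5 and 65.9 on days 1 to 28. Hk2, the inducible hexokinase, was listed at 1.06 FPKM on day 1, 2.81 on day 3, 2.20 on day 7 and 1.05 on day 14 and was not listed in control or on day 28, so no ratio is given. At its highest, on day 3, Hk2 made up 4.50% of the summed hexokinase 1 and 2 FPKM.

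Gpi1 encodes glucose 6-phosphate isomerase. It was listed at 100.4 FPKM in control and was higher in every post-stroke library, with 191 on day 1, 146 on day 3, 154 on day 7, 209 on day 14 and 156 on day 28. The log2 ratios were 0.93, 0.54, 0.62, 1.06 and 0.63, and the day 14 value fell just short of the limit when the libraries were centred on their median (0.96) or corrected for length (0.98). On day 28 it was still listed above the single control library, which all these ratios share. The main start, with its first base at position 34230257 of chromosome 7, carried 81.9 FPKM in control and 171, 141, 150.2, 179 and 153 on days 1 to 28.

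The 3 phosphofructokinase genes, which catalyse the committed step, differed by no more than 1.30-fold between the lowest and the highest of the 6 libraries. Pfkm, the muscle-type subunit, ranged from 91.5 FPKM on day 7 to 115 on day 1 with 107 in control, Pfkp, the platelet type, from 40.2 on day 3 to 52.4 on day 1 with 43.5 in control, and Pfkl, the liver type, from 35.0 on day 7 to 45.1 on day 14 with 36.6 in control. The Pfkp values of control and day 3 are summed ends, while those of the other libraries are its start, listed at only 15.5 in control and 12.1 on day 3. Its main end was listed at 42.1 in control and 41.6, 38.1, 32.8, 38.4 and 34.3 on days 1 to 28, highest in control. By the gene values, Pfkm made up between 53.9% and 57.2% of the sum of the 3 genes.

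Pfkfb3 makes fructose 2,6-bisphosphate, the strongest activator of phosphofructokinase. It was listed at 3.85 FPKM in control, 7.37 on day 1, 5.57 on day 3, 6.13 on day 7, 1.48 on day 14 and 5.26 on day 28. Day 1 was the highest, at a log2 ratio of 0.92, and day 14 the lowest, at -1.32, and with a pseudocount of 1 FPKM the day 14 ratio was -0.96. Both starts of Pfkfb3, whose promoters are printed above, were used. The upstream one was listed at 1.20 FPKM in control, 4.56 on day 1, 1.26 on day 3 and 1.76 on day 7 and was not listed on days 14 and 28. The downstream one was listed at 2.65, 2.82, 4.31, 4.37, 1.48 and 5.26 in control and on days 1 to 28. The upstream start thus held 31.2% of the starts in control and 61.8% on day 1, and the higher total on day 1 came almost entirely from it, while on days 3, 7 and 28 the downstream start was the higher one.

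**Figure D4:**
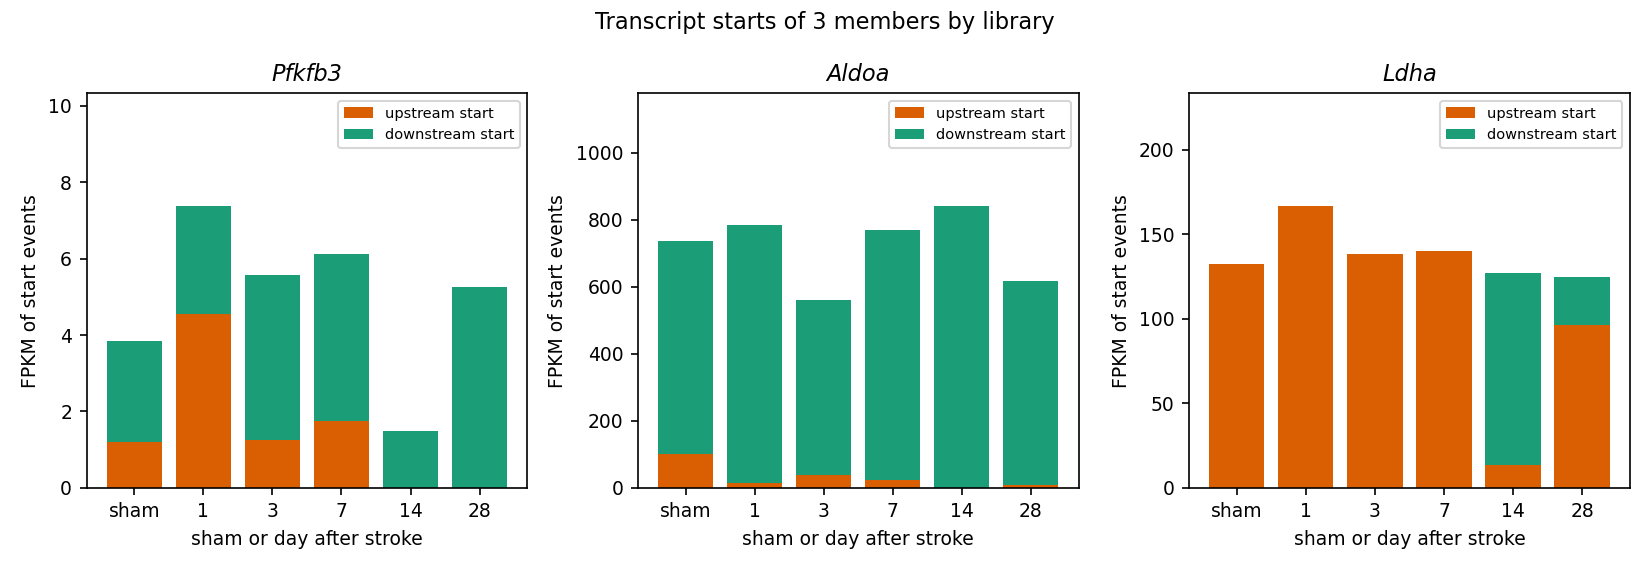
Summed FPKM of transcript start events of Pfkfb3, Aldoa and Ldha in the sham library and by day post-stroke (1 library per bar), stacked by start, with the upstream start of each gene in orange and the downstream start in green. The upstream start of Pfkfb3 is largest on day 1, that of Aldoa is largest in the sham library, and the downstream start of Ldha is seen on days 14 and 28.

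Aldolase splits fructose 1,6-bisphosphate. Aldoa, the most abundant of all genes described here, was listed at 740.0 FPKM in control, 786 on day 1, 562 on day 3, 771 on day 7, 841 on day 14 and 618 on day 28. Aldoc, the aldolase of astrocytes and Purkinje cells, was listed at 317 FPKM in control, 238 on day 1, 252 on day 3, 315 on day 7, 418 on day 14 and 319.8 on day 28. The share of Aldoc in the sum of both was lowest on day 1 (23.3%, against 30.0% in control) and highest on day 28 (34.1%). From summed ends its range was 1.45 in place of 10.8 points, since the ends listed for Aldoa carry at most 4.91 FPKM. An upstream start of Aldoa, 1193 bases from the main one, was listed at 102 FPKM in control (13.8% of the starts) and at 15.9, 38.7, 23.2, 0.808 and 7.21 on days 1 to 28, lower in all 5 post-stroke libraries than in control. Tpi1, triosephosphate isomerase, was listed at 283, 313, 283, 261, 423 and 325 FPKM in control and on days 1 to 28. Its log2 ratio on day 14 was 0.58, and 0.16 after the length correction.

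In the lower part of glycolysis, Pgk1 and Pgam1, which move the phosphate of the 3-carbon acids, were nearly flat. Pgk1 ranged from 179 FPKM on day 7 to 221 on day 1 with 191 in control, and Pgam1 from 139 on day 28 to 169 on day 1 with 152 in control. Eno1, the enolase of most tissues and of glia, was listed at 229 FPKM in control and at 262, 278, 302, 381 and 279 on days 1 to 28, higher than control in all 5 post-stroke libraries. Eno2, the enolase of neurons, was listed at 236 FPKM in control and at 219, 208, 222, 313 and 245. The share of Eno1 in the sum of both, which does not depend on how a library was scaled, was 49.3% in control, 54.5% on day 1, 57.2% on day 3, 57.6% on day 7, 54.9% on day 14 and 53.2% on day 28.

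Markers of other cells moved over the same libraries, and their part in the enolase share was not tested. The summed FPKM of 5 of 6 neuron markers with a value (all but Tubb3) was 1462 in control and 1359, 1041, 1076, 979 and 1258 on days 1 to 28. Snap25 made up 706, 670, 495, 512, 486 and 629 of it, and Syt1 and Slc17a7 were, like Snap25, below control throughout. Rbfox3 and Gad1 were not: Rbfox3 was listed at 89.9 in control, 103 on day 1 and 91.5 on day 14, and Gad1 at 70.3, 82.2 and 77.3. The 6 astrocyte markers summed to 506 in control and 692, 1213, 878, 706 and 533, of which Gfap made up 85.8, 330, 698, 422, 380.0 and 149.7. Slc1a2, Slc1a3 and Aqp4 were below control on days 1, 14 and 28 and above it on days 3 and 7. Slc1a2 was listed at 199.9 in control and 148, 234, 212, 126 and 164. Gjb6 was above control throughout, and Aldh1l1 on days 1 and 3 only. The 7 of 8 microglia and macrophage markers with a value (all but Itgam) summed to 57.5, 50.8, 238, 465, 284 and 75.2, of which Lyz2 alone made up 6.73, 11.05, 137, 357, 196 and 26.2, and the other 6 summed to 50.7, 39.8, 101, 108, 88.1 and 49.0. The 4 oligodendrocyte markers were lowest on day 28 (1418) and highest on day 1 (2018). The 4 endothelial markers summed to between 5.46 and 14.0 FPKM, 4 of 5 red blood cell markers (all but Hba-a1) to between 159.7 and 477, and the neutrophil genes S100a8 and S100a9, the only 2 of 5 neutrophil markers with a value, to 16.3 on day 1, 9.16 on day 14 and at most 1.59 in the other libraries.

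Lactate dehydrogenase A, the subunit that favours making lactate, was listed at 133 FPKM in control, 174 on day 1, 139 on day 3, 141 on day 7, 128 on day 14 and 126 on day 28. Ldhb, the subunit that favours using it, was listed at 301 FPKM in control and at 293, 256, 277, 371 and 293. The share of Ldha was 30.7% in control, 37.2% on day 1, 35.1% on day 3, 33.7% on day 7, 25.6% on day 14 and 30.0% on day 28, so that day 1 had the highest share and day 14 the lowest. From summed transcript ends the range of the share was 2.74 in place of 11.6 points, since the ends listed for Ldha carry only 1.19 FPKM in control and between 0.114 and 8.34 after stroke. In control and on days 1, 3 and 7 all Ldha starts of at least 1 FPKM lay at 1 place, while a start 1243 bases downstream held 89.3% of the starts on day 14 and 23.1% on day 28.

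**Figure D5:**
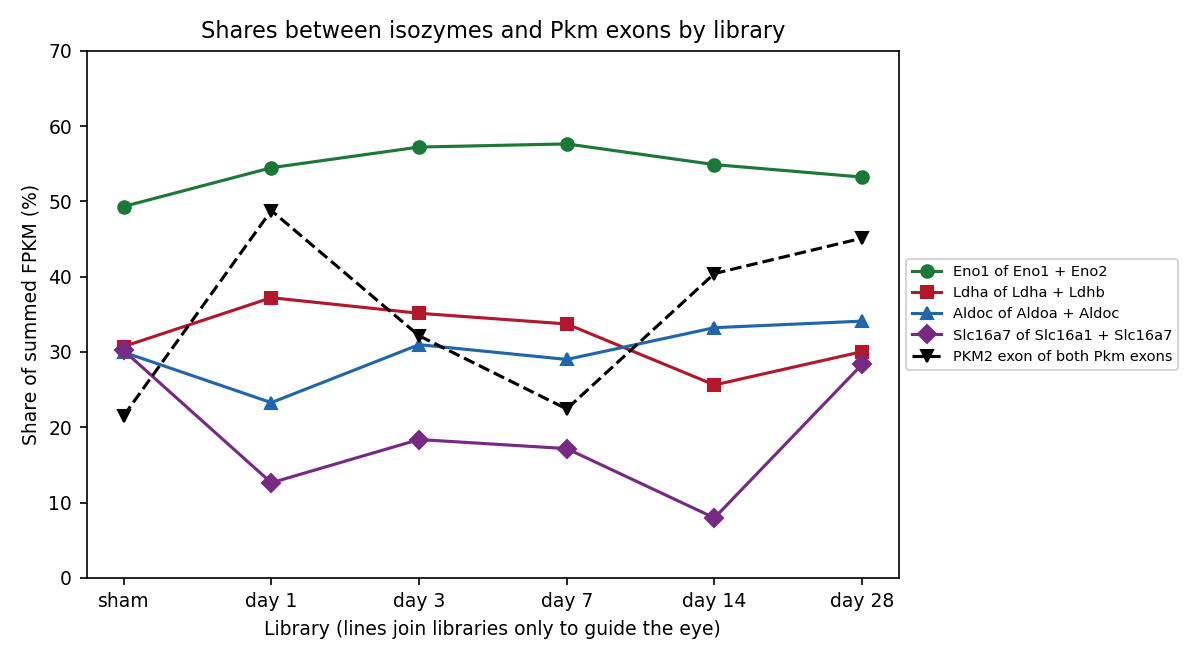
Share of 1 isozyme in the summed FPKM of its pair (solid lines, filled markers) and share of the PKM2 exon in the summed FPKM of both alternative Pkm exons (dashed line), in percent, in the sham library and 5 post-stroke libraries. Eno1 lies above its sham share in all 5 post-stroke libraries, the Ldha share is highest on day 1, and the PKM2 exon share is highest on days 1 and 28.

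Pyruvate kinase, the last step of glycolysis, makes PKM1 or PKM2 by using either of a pair of exons that exclude each other, and PKM1 is the form of mature neurons and muscle. The exons are shown because they are the feature on which the Pkm readings turn. They were read from GENCODE M21 transcripts on GRCm38, have 167 bases each and are equal at 103 positions (61.7%) when laid side by side, and the capitals mark the 64 positions that differ.
Upstream exon, PKM1 (chr9:59675029-59675195, plus strand): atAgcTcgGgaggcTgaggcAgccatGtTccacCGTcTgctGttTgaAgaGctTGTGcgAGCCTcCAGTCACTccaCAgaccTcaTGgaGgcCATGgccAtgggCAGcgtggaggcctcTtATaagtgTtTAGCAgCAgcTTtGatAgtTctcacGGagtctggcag
Downstream exon, PKM2 (chr9:59675568-59675734, plus strand): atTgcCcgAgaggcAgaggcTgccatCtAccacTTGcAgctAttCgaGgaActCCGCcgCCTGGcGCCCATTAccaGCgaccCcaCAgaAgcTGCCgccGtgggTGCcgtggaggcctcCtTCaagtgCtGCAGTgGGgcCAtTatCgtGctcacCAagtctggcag

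Transcripts with the PKM1 exon were listed at 318 FPKM in control, 268 on day 1, 294 on day 3, 323 on day 7, 331 on day 14 and 263 on day 28. Those with the PKM2 exon were listed at 87.1 in control, 256 on day 1, 139 on day 3, 93.3 on day 7, 225 on day 14 and 216 on day 28. The PKM2 exon was therefore 21.5% of the sum of both in control, 48.8% on day 1, 32.1% on day 3, 22.4% on day 7, 40.4% on day 14 and 45.1% on day 28, with the day 7 library next to control and the day 28 library next to day 1. At day 3, 53.0 FPKM of these transcripts carried both exons and are counted under both. Without them, day 3 had 241 FPKM with the PKM1 exon and 86.2 with the PKM2 exon. The summed starts within Pkm were 502 FPKM in control and 530, 399, 461, 563 and 487 on days 1 to 28. In control and on day 7 both exon values together fell further short of the summed starts than in the other libraries. Which form the missing part belongs to is unknown, so the low PKM2 shares of these libraries rest on incomplete sums. These are values of assembled transcripts, not counts of reads across the exon junctions, and how short reads were divided between both forms was not tested.

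The pyruvate dehydrogenase kinases switch off the entry of pyruvate into the citric acid cycle. Pdk1, a target of the hypoxia-inducible factors, was listed at 10.7 FPKM in control and at 8.89, 10.7, 11.5, 7.94 and 8.42 on days 1 to 28. Pdk2, the most abundant of the 3 in this cortex, was listed at 30.8 FPKM in control, 38.6 on day 1 and 37.6 on day 14, and between 28.5 and 33.0 otherwise. Pdk4, which answers to fasting and glucocorticoids, was listed at 2.13 FPKM in control and above it in all 5 post-stroke libraries, at 3.18, 4.17, 3.37, 2.49 and 2.81, with its largest log2 ratio (0.93) on day 3. None of the 3 passed the limit.

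For Hif1a, the oxygen-regulated subunit, the start at position 73907904 of chromosome 12 was listed at 9.94 FPKM in control, 10.2 on day 1, 18.3 on day 3, 11.9 on day 7, 10.0 on day 14 and 10.1 on day 28, with day 3 the highest. An alternative exon of 165 bases within the gene was listed at 9.80, 9.51, 11.2, 10.5, 9.99 and 9.37 in the same order, and a form of that exon with a later left end, of 123 bases, at 4.48, 6.47, 7.05, 6.87, 1.91 and 4.99, with days 1, 3 and 7 alike and day 14 the lowest. The summed starts were 10.1, 14.0, 18.5, 12.1, 10.1 and 15.2. Both exon forms together exceeded the summed starts in control and on days 1, 7 and 14, so the starts listed there are incomplete. Relative to control, day 3 rose less in either exon form than in the start at position 73907904. A start further upstream was listed at 4.99 on day 28 and a start further downstream at 3.85 on day 1. Epas1, which encodes HIF-2 alpha and is strong in endothelium, was listed at 22.8 FPKM in control, 22.4 on day 1, 26.4 on day 3, 20.4 on day 7, 16.4 on day 14 and 19.4 on day 28.

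The prolyl hydroxylases that mark these factors for breakdown differed from each other. Egln1, the main oxygen sensor, kept between 20.3 and 23.0 FPKM, the narrowest range of the genes listed everywhere. Egln3, itself induced by the factors, was listed at 2.47 FPKM in control, 2.53 on day 1, 4.65 on day 3, 4.06 on day 7, 3.72 on day 14 and 3.01 on day 28, with log2 ratios of 0.04, 0.89, 0.70, 0.57 and 0.28, all short of the limit.

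Among the hypoxia-induced genes, Adm and Ddit4 had their highest values on day 1. Adm encodes adrenomedullin, a peptide that widens vessels, and was listed at 0.706 FPKM in control, 2.92 on day 1, 1.69 on day 3, 0.855 on day 7, 1.35 on day 14 and 1.28 on day 28. Its log2 ratio was 1.91 on day 1 and 1.15 on day 3, and the latter was 0.66 with a pseudocount of 1 FPKM. Ddit4 encodes REDD1, an inhibitor of mTORC1 that stress and glucocorticoids also induce, and was listed at 16.9 FPKM in control, 39.7 on day 1, 25.8 on day 3, 25.3 on day 7, 24.3 on day 14 and 30.8 on day 28. All 5 post-stroke libraries were above control, at log2 ratios of 1.23, 0.61, 0.58, 0.52 and 0.86, of which day 1 passed the limit. Bnip3 was listed at 57.6 FPKM in control and 58.9 on day 1, and between 48.4 and 52.6 later.

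Summed over the 14 enzymes of glycolysis and lactate dehydrogenase listed in every library (Pkm and Gapdh apart), the level was 2942 FPKM in control, 3152 on day 1, 2699 on day 3, 2999 on day 7, 3689 on day 14 and 2942 on day 28. The sum was 25.4% above control on day 14 and differed from control by -8.28% to 7.12% at the other times. The longest transcripts of these 14 enzymes run from 1304 bases (Ldhb) to 8681 (Pfkp), and the sum is not corrected for length. Length-corrected day 14 log2 ratios were negative for Aldoa (-0.24), Ldhb (-0.12), Pgk1 (-0.33), Pgam1 (-0.34), Ldha (-0.39), Pfkm (-0.17) and Hk1 (-0.07). They were positive for Gpi1 (0.98), Eno1 (0.44), Pfkp (0.37), Pfkl (0.25), Eno2 (0.22), Aldoc (0.22) and Tpi1 (0.16). The 25.4% on day 14 is therefore not separated from the length trend of that library.

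Other genes of the same pathways, 102 in 6 lists, of which 87 had a value, were taken as lists beside the 32. Higher and lower than control were 4 and 2 of 79 compared on day 1, 7 and 2 of 80 on day 3, 8 and 1 of 80 on day 7, 5 and 1 of 79 on day 14, and 1 and 2 of 78 on day 28. The higher shares were 5.06%, 8.75%, 10.0%, 6.33% and 1.28%, beside 5.11%, 8.54%, 8.53%, 8.97% and 3.68% of all genes, and the lower shares 2.53%, 2.50%, 1.25%, 1.27% and 2.56%, beside 4.48%, 2.53%, 2.12%, 6.92% and 2.79%. None of the 7 regulators of the factors compared passed it at any time, and of the 17 glycogen genes only Pygl, glycogen phosphorylase of liver, did (1.46 FPKM in control and 3.53 on day 7), named after its values were seen. Of the other glycolytic enzymes and their regulators, 19 of 24 had a value, and 14, 15, 15, 16 and 15 were compared on the 5 days in order. Of those compared, 0, 1, 2, 2 and 0 were higher and 1, 1, 1, 0 and 1 lower. Hk3, named after its values were seen, was among the higher on days 3, 7 and 14. Listed at 0.218 FPKM in control, it entered the comparison only through its post-stroke level. Of the 12 genes of pyruvate entry into mitochondria, 0 were higher and 1, 1, 0, 1 and 0 lower. Of the 6 of 8 pentose phosphate genes with a value, 1, 1, 1, 0 and 1 were higher and 1 was lower, on day 28. Each of these higher calls was H6pd, named after its values were seen, which passed only because it was not listed in control and was set to 0. It also supplies the only higher call among the 87 on day 28. Of the hypoxia-induced genes outside the 32, 3 of 24 were higher on day 1 (12.5%, against 5.11% of all genes), 5 of 24 on day 3 (20.8%, against 8.54%), 4 of 24 on day 7 (16.7%, against 8.53%), 3 of 23 on day 14 (13.0%, against 8.97%) and 0 of 22 on day 28 (3.68% of all), and 0 were lower.

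Heme oxygenase 1, Hmox1, was called higher on 4 of the 5 days. It was listed at 2.20 FPKM in control, 27.0 on day 1, 65.2 on day 3, 19.7 on day 7, 8.60 on day 14 and 3.63 on day 28, and heme and oxidative stress induce it as well as hypoxia. Plod1, a collagen lysyl hydroxylase, was listed at 6.09 FPKM in control, 7.99 on day 1, 12.4 on day 3, 12.9 on day 7, 10.2 on day 14 and 5.19 on day 28. Pfkfb4, the sister enzyme of Pfkfb3, was listed at 1.94 FPKM in control, 3.09 on day 1, 3.96 on day 3, 4.22 on day 7, 5.56 on day 14 and 3.06 on day 28, so that it was highest where Pfkfb3 was lowest. Mpc1, a subunit of the mitochondrial pyruvate carrier, was listed at 34.6 FPKM in control, 29.9 on day 1, 15.8 on day 3, 24.9 on day 7, 45.0 on day 14 and 35.7 on day 28, so day 3 was the lowest. Pgd, of the pentose phosphate pathway, was listed at 8.12 FPKM in control, 14.4 on day 1, 9.75 on day 3, 13.0 on day 7, 8.98 on day 14 and 2.60 on day 28, and only day 28 passed the limit.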

How the data were processed

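Total RNA of 3 mice per time was pooled by the authors, made into poly(A)-selected, strand-specific libraries and sequenced, with 1 library per group and 6 in all. The labels' processing notes name Trimmomatic 0.30, HISAT2 2.0.1, HTSeq 0.6.1 and the mm10 build; the transcript assembler is not given in the sources used here. The deposited values are FPKM that the authors computed for each start, end or splicing event of a transcript, and list 79330 to 93931 events per library. FPKM keep no read counts, which leaves the sequencing depth unknown, and no interval is given.

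Here repeated rows of an event were counted once, and a gene's value was the largest of its summed starts, its summed ends and any single event. This is a lower bound for the locus given that identifier. A gene missing from a library was taken as 0 in counts, which bears on Hk2 alone among these genes, and counts over genes listed in both libraries are given beside them. Ratios used a pseudocount of 0.1 FPKM, a minimum of 1 FPKM in 1 of the 2 libraries and a limit of 1 (log2). No test was run, since every group is 1 library. Of 15441 identifiers, 15429 matched GENCODE M21 (GRCm38, the same build as mm10). RefSeq promoters were matched by symbol for 29 of the 32 genes, and Slc16a7, Slc2a3 and Epas1 had no entry. The length correction divides each library by the median trend of its ratio to control over 20 bins of the longest annotated transcript.

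The genes and the lists of other pathway and marker genes were chosen with earlier results of these data known. All 32 genes are named, and others where they passed the limit in at least 1 post-stroke library with at least 5 FPKM in 1 of the 2 libraries. Alternatives covered the pseudocount, the filter, the limit, the gene value, the scaling, transcript length and the reference library. The computing of gene values and calls was checked on simulated data in which the starts of each gene summed to its total. Such data hold no incomplete starts or ends, so the check does not bear on those. The software was matplotlib 3.10.9, scipy 1.17.1, pandas 2.3.3 and numpy 2.4.6 under Python 3.11.15.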

Additional observations from a re-analysis of the deposited data

Results flagged for a closer look

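Slc16a3, the lactate exporter MCT4, was the one gene of the 32 called higher in some post-stroke libraries and lower in another, with log2 ratios to control of 1.13 at day 3, 1.81 at day 7 and -1.23 at day 28. Each time is 1 library, the levels are between 0.464 and 4.54 FPKM, and the difference between the times was not tested.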

How the results depend on the processing

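Each group is 1 library, so no replicate could be left out and no paired analysis was possible because no group has a second library. Of 143 log2 ratios of single genes, all 143 kept their side of the limit with a pseudocount of 0.01 FPKM and with events inside the annotated span only, 142 with median-centred libraries, 141 with the length correction and 138 with a pseudocount of 1 FPKM, and none turned its direction while called. From summed starts only, 136 of 141 kept their side, and from summed ends only 118 of 129.

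Counts of the genes described were small, so single genes moved them. A minimum of 5 FPKM left 1 higher and 0 lower at day 1, 0 higher at days 3 and 7, 1 higher and 0 lower at day 14 and 0 lower at day 28. A limit of 0.5 gave 6 higher and 2 lower at day 1, 9 higher at day 3, 7 higher and 1 lower at day 7, 7 higher at day 14, and 3 higher and 2 lower at day 28. A pseudocount of 1 FPKM gave 0 lower at day 1, 1 higher at day 3, 1 lower at day 14 and 0 lower at day 28. Summed ends gave 2 lower at day 1, 2 lower at day 3, 1 lower at day 7, 0 higher at day 14 and 2 lower at day 28, and summed starts 4 higher at day 14 and 1 higher at day 28. Genes listed in both libraries alone gave 1 higher at day 7 and 1 at day 14. The length correction gave 0 lower at day 1 and 1 higher at day 14, median-centred libraries 0 higher at day 14, and day 28 as reference 0 lower at day 1. The median at day 14 was 0.10 with median-centred libraries and 0.11 with the length correction. Of the other pathway genes, a pseudocount of 1 FPKM gave 0 lower at day 1, 5 higher at day 7, 2 higher at day 14 and 1 lower at day 28, and median-centred libraries 3 lower at day 14.

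Alternatives chosen after seeing the data bear on the 13 genes highest at day 1, which were 13 with median-centred libraries, 11 with the length correction and 16 without the day 14 library. Leaving a library out can only raise such a count, for any set of genes. With the length correction and without day 14, 16 of 28 (57.1%) were highest at day 1, against 24.7% of all genes. From summed starts, which are incomplete for Pfkm and Pfkp in some libraries, the range of the Pfkm share was 38.2 points in place of 3.30. From summed ends the range of the Ldha share was 2.74 points in place of 11.6, and of the Aldoc share 1.45 points in place of 10.8, because the ends listed for Ldha and Aldoa are minor events. Apart from scaling and the events chosen, the causes were not tested.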
